A study of Mus musculus with 4 samples.

Results

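The cytochrome P450, steroid-metabolising and conjugation enzymes were described by 111 probe sets for 89 genes, out of 12422 probe sets for 8251 genes on the array. The members were chosen by gene symbol alone and not by their values: P450s (Cyp), hydroxysteroid dehydrogenases (Hsd), alcohol and aldehyde dehydrogenases (Adh, Aldh), carboxylesterases (Ces), epoxide hydrolases (Ephx), flavin monooxygenases (Fmo), sulfotransferases (Sult) and UDP-glucuronosyltransferases (Ugt) whose probe set reads a single gene. Cyp51 and Hsd17b4 were left out by the rule, and no probe set matched Por, the P450 reductase gene, in the annotation used here.

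The samples were snap-frozen seminal vesicle tissue of 4 C57Bl/6J mice, genotype Nkx3.1 +/+ and 15 months old, with 1 Affymetrix Mu74AV2 array per mouse and 1 group in all. No comparison of genotypes, ages or tissues was therefore possible, and the questions were which of these enzymes were measured above background and which varied from mouse to mouse. Mice are numbered 1 to 4 only to name them. P-values measure the spread between these 4 samples, and the labels do not say whether the mice shared a litter, cage or hybridisation day.

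The P450s are haem enzymes of the endoplasmic reticulum and mitochondria that oxidise steroids, fatty acids, retinoids and foreign compounds with electrons from partner reductases. Hydroxysteroid dehydrogenases switch steroids between active and less active forms, while alcohol and aldehyde dehydrogenases act one after the other on alcohols, including the path from retinol to retinoic acid. Sulfotransferases and UDP-glucuronosyltransferases attach polar groups that make hormones and foreign compounds soluble. The seminal vesicle depends on androgens made elsewhere, mainly in the testis, and is a target rather than a main source of steroid hormones.

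A gene was called above the background range when at least 1 of its probe sets exceeded a limit on all 4 arrays. As limit each array had the 90th percentile over 85 genes, read by 102 probe sets, known from organs such as liver, brain and eye. The limits were 6.17, 6.01, 6.08 and 6.22 in mice 1 to 4, on the log2 scale of the deposited values. The range does not compare one probe set's level with another's, and a value under it does not show that a gene is silent. All 6 measured seminal vesicle secretion genes were above it, with Svs2 at 12.45, 12.67, 12.54 and 12.48. Of 9 measured hepatocyte genes 0 were above it, though most of them also helped to set the limit, and Alb, the albumin gene, had 4.49, 4.12, 4.38 and 4.61. Array medians lay between 4.95 and 4.98, and pairs of arrays correlated over the probe sets, which share an array and are not independent, at a Pearson's r of 0.992 to 0.994.

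The 16 member genes above the background range came mainly from the dehydrogenases. They were Adh1, Adh5, Adh7, Aldh1a1, Aldh2, Aldh3a1, Aldh7a1, Hsd3b7, Hsd17b10, Hsd17b11, Ephx1, Ces1d, Ces2g, Cyp21a1, Cyp4a12b and Cyp4b1. These were 18.0% of 89 genes, beside 28.6% of all 8251 genes, and by probe sets 19 of 111 or 17.1% beside 23.5% of all. Among alcohol and aldehyde dehydrogenases 7 of 14 genes were above, among P450s 3 of 39, and among sulfo- and glucuronosyltransferases 0 of 12. The plot of member genes by enzyme family shows these counts. Of the 111 member probe sets, 89 were under the limit on every array, 3 exceeded it on 1 or 2 arrays and 19 on all 4.

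**Figure D1:**
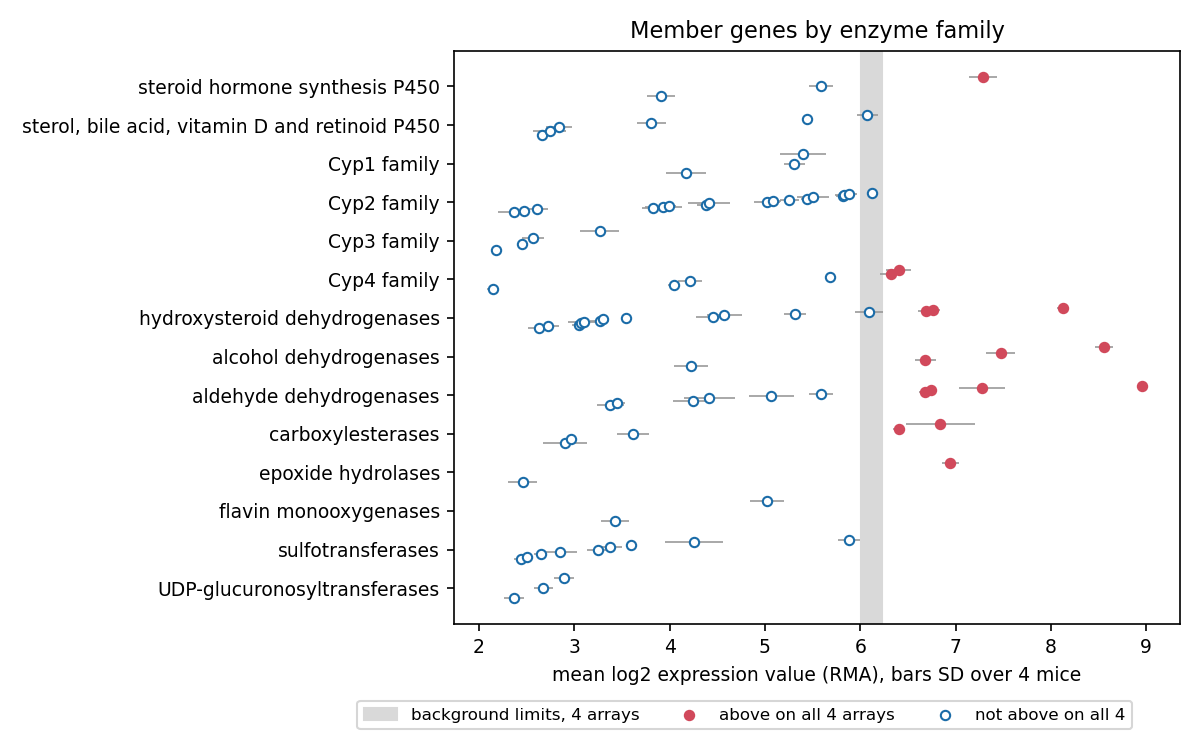
Each point is 1 of the 89 member genes, shown by its probe set of highest mean, with the mean log2 expression value (RMA) of 4 mice on the horizontal axis, bars of 1 SD and the enzyme family on the vertical axis. The grey band spans the background limits of the 4 arrays, from 6.01 to 6.22, and the 16 filled points right of it include 7 alcohol and aldehyde dehydrogenases and 3 P450s.

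The measured alcohol dehydrogenase genes lie in 1 cluster in the RefSeq gene order, in the sequence Adh7, Adh1, Adh4 and Adh5, with other genes between some of them, and all but Adh4 were above the background range. Since genes of 1 cluster differed in this way, their promoter windows (RefSeq, GRCm38.p6, from 250 bases before to 50 after the annotated start) are shown, each read 5′ to 3′ on the plus strand, which is the gene strand here. Capitals mark matches on either strand to AGAACA, a hexamer bound by androgen and glucocorticoid receptors, to GCGTG, the core bound by the aryl hydrocarbon receptor, to GGGCGG, the GC box, and to CCAAT, and matches on the gene strand alone to TATAAA. The windows are chr3:138217523-138217822 for Adh7, chr3:138277335-138277634 for Adh1, chr3:138415247-138415546 for Adh4 and chr3:138442843-138443142 for Adh5, the last being 1 of 2 windows given for that gene. The other Adh5 window, which is not printed, starts at base 138436950.
Adh7: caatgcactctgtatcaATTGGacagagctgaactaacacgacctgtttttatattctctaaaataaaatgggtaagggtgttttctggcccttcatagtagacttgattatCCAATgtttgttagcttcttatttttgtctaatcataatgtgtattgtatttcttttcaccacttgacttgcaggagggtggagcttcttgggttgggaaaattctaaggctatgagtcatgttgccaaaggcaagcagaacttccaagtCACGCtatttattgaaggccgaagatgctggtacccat
Adh1: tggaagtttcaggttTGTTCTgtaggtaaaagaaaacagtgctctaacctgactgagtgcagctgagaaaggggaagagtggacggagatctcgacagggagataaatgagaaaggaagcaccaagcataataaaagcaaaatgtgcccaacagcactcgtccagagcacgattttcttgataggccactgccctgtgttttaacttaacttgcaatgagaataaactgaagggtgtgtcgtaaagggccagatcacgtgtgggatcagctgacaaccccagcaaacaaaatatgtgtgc
Adh4: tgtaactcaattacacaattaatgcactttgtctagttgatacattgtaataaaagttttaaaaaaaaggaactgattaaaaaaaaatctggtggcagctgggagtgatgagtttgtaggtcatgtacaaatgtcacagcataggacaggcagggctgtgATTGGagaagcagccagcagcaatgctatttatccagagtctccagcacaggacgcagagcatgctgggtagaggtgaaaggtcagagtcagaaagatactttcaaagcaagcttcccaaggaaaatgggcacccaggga
Adh5: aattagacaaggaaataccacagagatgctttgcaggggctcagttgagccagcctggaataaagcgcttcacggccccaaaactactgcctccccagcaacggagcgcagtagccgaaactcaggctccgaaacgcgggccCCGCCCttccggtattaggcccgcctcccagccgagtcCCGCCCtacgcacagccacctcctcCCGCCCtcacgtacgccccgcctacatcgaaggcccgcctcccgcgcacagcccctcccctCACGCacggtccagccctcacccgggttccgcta
The printed Adh5 window held 3 GC boxes and 65.0% G and C, and the other Adh5 window held no GC box, 1 TATAAA match at -207 and 47.0% G and C, against 39.3% in Adh7, 45.3% in Adh1 and 42.3% in Adh4, where no GC box was found, while all windows had a median of 52.7%. Adh1 held 1 receptor hexamer, at -235 from the start, Adh4 held 1 CCAAT match and Adh7 held 2 CCAAT matches and 1 GCGTG core. A GCGTG core was also found in the printed Adh5 window, at 16 from the start. These motifs are frequent: of 32851 windows, 19% held AGAACA, 32.4% GCGTG, 35.7% GGGCGG, 37.4% CCAAT and 8.32% TATAAA. A match describes letters only.

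Adh1, which oxidises ethanol and retinol, had 8.43, 8.65, 8.52 and 8.61 in mice 1 to 4 and a mean of 8.56 ± 0.10 (SD, n = 4). Adh5, the glutathione-dependent formaldehyde dehydrogenase, had 7.38, 7.57, 7.63 and 7.31 by one probe set and 7.27, 7.11, 7.25 and 7.27 by another. Adh7, an ethanol and retinol dehydrogenase best known from stomach epithelium, had 6.64, 6.59, 6.84 and 6.65. In none of these genes did a mouse fall to the limit. Adh4, a liver-enriched relative, had a mean of 4.22 ± 0.18 (SD, n = 4), under the limit on all 4 arrays, and its other probe set averaged 3.04.

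**Figure D2:**
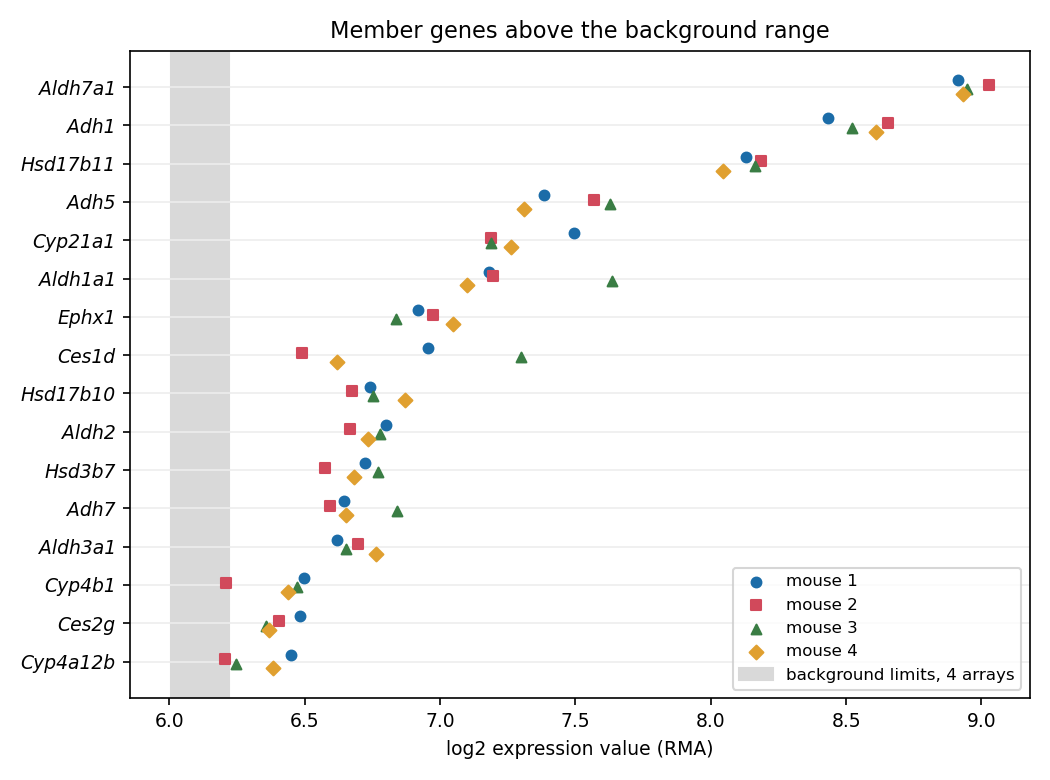
Log2 expression values (RMA, horizontal axis) of the 16 member genes above the background range, 1 symbol per mouse, with genes sorted by their mean for display only. The values of all 4 mice lay to the right of each array's own limit, which the grey band spans from 6.01 to 6.22, so that the mouse 2 points of Cyp4b1 and Cyp4a12b pass their own limit of 6.01 inside the band. Ces1d spread most, from 6.49 in mouse 2 to 7.30 in mouse 3, and Aldh7a1 lay between 8.91 and 9.03.

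Of 10 aldehyde dehydrogenase genes 4 were above the background range, and 1 was when the probe sets of each gene were averaged. Aldh7a1, an enzyme of lysine breakdown, had 8.91, 9.03, 8.95 and 8.93, and another probe set of it averaged 8.65 while the dimmest had 2.96, 3.17, 3.20 and 3.06. Aldh2, the mitochondrial acetaldehyde dehydrogenase, had 6.80, 6.67, 6.78 and 6.73, and Aldh1a1, which turns retinaldehyde into retinoic acid, had 7.18, 7.20, 7.64 and 7.10. By this probe set Aldh1a1 was thus highest in mouse 3, by more than the distance among the other mice. The other Aldh1a1 probe set, under the limit on all arrays, had 3.79, 3.78, 3.66 and 3.88, lowest in mouse 3.

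Other retinaldehyde dehydrogenases were under the limit on all arrays, with Aldh1a2 at a mean of 4.25 ± 0.21 (SD, n = 4) and Aldh1a3 at 3.43, 3.51, 3.33 and 3.50. Aldh1a7, a close relative in the same genomic cluster as Aldh1a1, had 3.47, 3.50, 3.19 and 3.35. Aldh3a1, known as an abundant corneal enzyme, was above the range at 6.62, 6.70, 6.65 and 6.76 only by a probe set whose suffix marks probes shared within a sequence family, and its other probe set averaged 4.84 ± 0.10 (SD, n = 4). The remaining aldehyde dehydrogenases lay under the limit, among them Aldh3a2, the fatty aldehyde enzyme, at a mean of 5.59, and Aldh18a1, an enzyme of proline synthesis, at 4.41.

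Of 15 hydroxysteroid dehydrogenase genes 3 were above the background range. Hsd17b11, a short-chain dehydrogenase found on lipid droplets, had 8.13, 8.19, 8.16 and 8.04 (8.13 ± 0.06, SD, n = 4). Hsd17b10, a mitochondrial dehydrogenase of branched-chain amino acid breakdown, had 6.74, 6.67, 6.75 and 6.87. Hsd3b7, which acts in bile acid synthesis from cholesterol, had 6.72, 6.57, 6.77 and 6.68. Mice differed little in these genes, and the range over mice was at most 0.20.

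The measured hydroxysteroid dehydrogenases best known for making and inactivating sex steroids were under the limit. Cyp19a1, the aromatase gene, and the steroid reductase genes Srd5a1 and Srd5a2 had no probe set of their own in the annotation used here. Hsd17b3, which makes testosterone in the testis, averaged 3.07 ± 0.02 (SD, n = 4), and Hsd17b1, which makes oestradiol, had 4.76, 4.36, 4.49 and 4.69. Hsd17b2, which oxidises testosterone and oestradiol to weaker forms, had 3.22, 3.18, 3.26 and 3.41, and Hsd17b7, an enzyme of cholesterol and oestradiol synthesis, had 3.32, 3.27, 3.29 and 3.31. Hsd17b12, a fatty acid elongation enzyme, came close to the limit with 6.06, 5.94, 6.30 and 6.06, and exceeded it in mouse 3 alone.

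Hsd3b enzymes include forms that turn pregnenolone into progesterone and, in the mouse, forms that reduce ketosteroids such as dihydrotestosterone, and 5 of the genes (Hsd3b1, Hsd3b2, Hsd3b3, Hsd3b5 and Hsd3b6) lie in 1 genomic cluster. None of these 5 was above the background range, and their values on the 4 arrays ran from 2.48 to 3.56. Hsd3b1, the gonadal and adrenal form, had 3.54, 3.50, 3.56 and 3.56. The glucocorticoid enzymes were under the limit too. Hsd11b1, which regenerates active glucocorticoid, had 4.29, 4.46, 4.36 and 4.70, and Hsd11b2, which inactivates it, had 5.38, 5.16, 5.28 and 5.43.

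Of the P450s of steroid hormone synthesis, Cyp21a1, the steroid hydroxylase of the adrenal cortex, was above the background range at 7.28 ± 0.15 (SD, n = 4), with mouse 1 highest and the others at 7.19, 7.19 and 7.26. Its single probe set carries a suffix for probes that more than 1 similar transcript can match, so the value may include related sequence such as the neighbouring pseudogene. Cyp11a1, which opens steroid synthesis by cleaving the cholesterol side chain, had 4.11, 3.76, 3.85 and 3.92, and Cyp17a1, which leads to androgens, had 5.71, 5.42, 5.56 and 5.67. Both were under the limit on all arrays. By their brightest probe sets all 3 genes were highest in mouse 1, as were 25.8% of all probe sets, with SDs of 0.13 to 0.15 and an adjusted p = 0.993 each by limma's variance model. The other Cyp17a1 probe set had 2.66, 2.62, 2.65 and 2.81, highest in mouse 4. Star, the cholesterol carrier of steroid-making cells, had 3.96, 3.71, 3.86 and 3.70.

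None of the 6 sterol, bile acid, vitamin D and retinoid P450s was above the range. Cyp8b1, a bile acid hydroxylase, had 6.05, 5.94, 6.20 and 6.11 and exceeded the limit in mouse 3 alone. Cyp7b1, which hydroxylates oxysterols and androgen metabolites, had 4.01, 3.69, 3.84 and 3.69. Cyp27b1, which activates vitamin D, averaged 5.44 ± 0.04, and Cyp24a1, which degrades it, averaged 2.66 ± 0.04 (SD, n = 4 each).

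The P450 families that act mostly on foreign compounds had no gene above the range: 0 of 3 Cyp1, 0 of 17 Cyp2 and 0 of 4 Cyp3 genes passed. Cyp2e1, the ethanol-inducible form, came nearest at 6.09, 6.17, 6.08 and 6.16 and exceeded the limit on 2 of 4 arrays. Gene means of the Cyp2 family ran from 2.36 to 6.13, those of Cyp3 from 2.18 to 3.27 and those of Cyp1 from 4.18 in Cyp1a1 upward, Cyp1a2 being the brightest. Many of these genes lie in clusters of near-identical copies, so that a probe set can read a neighbour.

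Among the 6 genes of the Cyp4 family, which hydroxylate the end of fatty acid chains, 2 were above the range. Cyp4b1 had a mean of 6.40 ± 0.13 (SD, n = 4), lowest in mouse 2 at 6.21, and Cyp4a12b had 6.45, 6.21, 6.25 and 6.38. The suffix of the Cyp4b1 probe set marks probes shared within a sequence family. Both genes passed narrowly, with smallest distances to an array's limit of 0.20 and 0.16. With a limit at the 95th percentile neither passed, nor did Ces1d and Ces2g, which left 12 genes.

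Of the hydrolases, Ephx1, the microsomal epoxide hydrolase, had 6.92, 6.97, 6.84 and 7.05, above the range, whereas Ephx2, the soluble form that acts on epoxides of fatty acids, had 2.65, 2.47, 2.28 and 2.44. Ces2g, a carboxylesterase, was the member nearest to the limit from above, with 6.48, 6.41, 6.36 and 6.37. Ces1d, which hydrolyses triacylglycerol, had 6.96, 6.49, 7.30 and 6.62, while Ces1c and Ces1g of the same cluster averaged 2.91 and 2.96. Fmo1, which oxidises nitrogen and sulfur in foreign compounds, and its relative Fmo5 averaged 5.02 and 3.43 and were under the limit.

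No sulfotransferase or glucuronosyltransferase gene with a probe set of its own was above the range. A probe set shared by 8 Ugt1a genes, which is no member, had 6.47, 6.18, 6.54 and 6.21 and exceeded the limit on 3 of 4 arrays. The 9 sulfotransferase genes had means of 2.44 to 5.89, with Sult4a1, a brain-enriched member, at the upper end. The 3 glucuronosyltransferase genes with a probe set of their own had means of 2.36 to 2.89. One of them, Ugt8a, makes the galactolipid of myelin rather than glucuronides.

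Genes that work with these enzymes were counted in the same way, and 27 of 101 measured, or 26.7%, were above the background range, beside 28.6% of all genes. Electron donors and haem enzymes had 6 of 11 above. Cyb5b, the mitochondrial cytochrome b5, averaged 7.39, Alas1, the first enzyme of haem synthesis, 7.19, and Cyb5a, the microsomal cytochrome b5, 6.97. Fdx1, the electron donor of mitochondrial steroid P450s, was also above.

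Cofactor supply had 4 of 10 genes above, including Slc35b1, a nucleotide transporter of the endoplasmic reticulum (9.14 ± 0.15, SD, n = 4), Papss1, which makes the sulfate donor (7.42 ± 0.17), and Gss, the glutathione synthetase gene (7.14 ± 0.14). Ugdh, which makes the glucuronate donor, was not above, at 5.77, 5.97, 5.64 and 5.72. Other conjugation genes had 6 of 23 above, led by the glutathione transferases Gstm1 (10.02 ± 0.09), Gstm5 (8.51 ± 0.09) and Gstm2 (8.24 ± 0.26). The mu-class transferases are close copies, and shared probes among them were not resolved. Gstm3, Gstp1 and Gstt2 were the others above. The remaining measured glutathione transferases on the list, among them Gsta1 to Gsta4 and Mgst1 to Mgst3, were not above the range. Of these, Gstz1 exceeded the limit on 3 of 4 arrays and Mgst3 on 1.

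Other oxidoreductases had 3 of 16 above, Akr1a1 (9.25 ± 0.09), Akr7a5 (7.49 ± 0.06) and Cbr3 (6.22 ± 0.07). Cbr3 passed narrowly, with 6.21, 6.12, 6.23 and 6.30 in mice 1 to 4 against limits of 6.17, 6.01, 6.08 and 6.22. Steroid supply genes had 5 of 9 above, with Npc2, a lysosomal cholesterol carrier, at 9.38 ± 0.11 and Tspo, a mitochondrial outer membrane protein, at 8.59 ± 0.12. Nr5a1, the transcription factor of steroid-making cells, was above at 8.46 ± 0.20 by 1 of its probe sets, while the other 4 averaged between 2.72 and 4.75. Of the 5 measured markers of steroid-making cells only Nr5a1 was above the range.

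Retinoid handling genes had 3 of 13 above, Rxrb (7.96 ± 0.01), Rdh11 (7.45 ± 0.20) and Rxra (6.99 ± 0.10). None of 19 measured xenobiotic and steroid sensors was above. In that list Cebpa came nearest, with 6.35, 6.12, 6.39 and 6.18 in mice 1 to 4, and exceeded the limit on 3 of 4 arrays, all but that of mouse 4. Nr1i3, a xenobiotic sensor known from liver, averaged 5.92 by its brightest probe set, Esr1, an oestrogen receptor, 5.79, and Ahr, the dioxin receptor, 2.88. The androgen receptor gene was not analysed here.

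The spread of each probe set over the mice was tested next. The test asked whether this spread exceeded that typical of probe sets of similar signal on the same arrays. No mouse had a repeat array, so differences between animals cannot be separated from noise of labelling or array. With limma's variance model, fitted to all 12422 probe sets, 0 of 111 member probe sets passed the adjusted p threshold of 0.05, beside 35 or 0.282% of all probe sets. At an unadjusted p under 0.05 stood 6 of 111, or 5.41%, beside 5.44% of all. The median SD over the mice was 0.11 for the members and 0.11 for all probe sets. The plot of spread against level shows the members inside the cloud of the other probe sets. A probe set that missed the threshold is not shown to be equal in the mice.

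**Figure D3:**
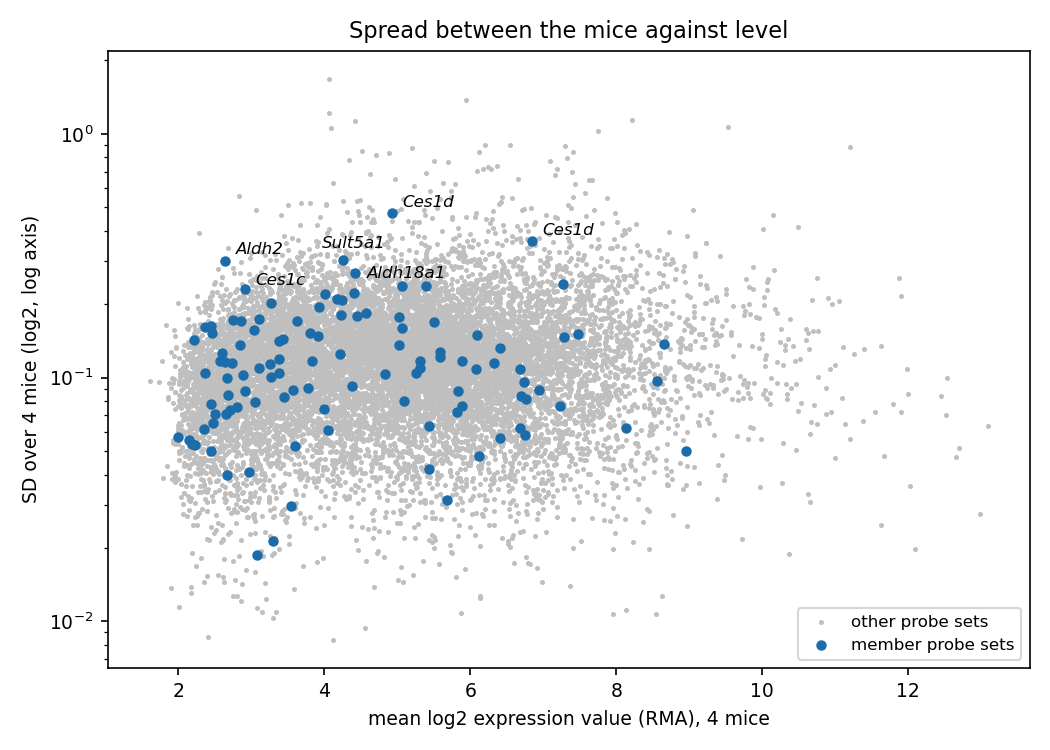
Each point is a probe set, with its mean log2 expression value (RMA) over 4 mice on the horizontal axis and its SD over the mice on a log vertical axis. Grey points are the other probe sets and blue points the 111 members, and the 6 members with an unadjusted p under 0.05 are named. Both Ces1d probe sets, at SDs of 0.36 and 0.47, lie near the top of the members.

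Ces1d showed the largest spread of the member genes by both of its probe sets. The brighter probe set had 6.96, 6.49, 7.30 and 6.62 in mice 1 to 4, with an SD of 0.36 and limma's adjusted p = 0.493, and the dimmer had 5.43, 4.58, 5.24 and 4.48, with an SD of 0.47 and limma's adjusted p = 0.244. In both, mice 1 and 3 lay above mice 2 and 4, without overlap, an order in either direction that 40 of 111 member probe sets, or 36.0%, and 33.2% of all probe sets had. The suffixes of both probe sets mark probes that are incomplete or shared within a family, so that a related carboxylesterase may contribute. Without mouse 3 the SD of the brighter probe set was 0.24 (adjusted p = 0.873, limma).

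The summed levels of marker lists are given beside these values, and their part in the values of Ces1d and Aldh1a1 was not tested. Of the lists in this paragraph only that of plasma and B cells had probe sets called variable by limma at the adjusted threshold. In bulk tissue a change in the share of a cell type and a change of RNA per cell cannot be told apart. Of 10 measured macrophage and dendritic cell markers 4 were above the range. The summed level of the 10 on the log2 scale was 10.12, 10.35, 10.52 and 9.86 in mice 1 to 4. It was highest in mouse 3 and lowest in mouse 4, as the brighter Aldh1a1 probe set was, whereas the dimmer Aldh1a1 probe set had the reverse. By their brightest probe sets the markers Cd68, Csf1r and Lyz2 did not have both of these extremes. Mast cell markers, of which Tpsb2 alone of 6 was above the range, summed to 8.65, 8.33, 8.66 and 8.43, with mice 1 and 3 above mice 2 and 4 as in Ces1d. The brightest Tpsb2 probe set, for a mast cell tryptase, had 8.06, 7.69, 8.05 and 7.81. A probe set of Cma1, a mast cell chymase, had 6.17, 5.38, 6.10 and 4.85, also with mice 1 and 3 above mice 2 and 4. The dimmer Tpsb2 probe set and the probe set of Kit had the reverse, with mice 1 and 3 below mice 2 and 4. All other mast cell probe sets had mice 1 and 3 above. Plasma and B cell markers (2 of 6 above), with 4 of their 24 probe sets called variable, summed to 9.49, 10.06, 9.86 and 8.58, lowest in mouse 4. Smooth muscle markers (9 of 9 above) summed to 13.00, 12.51, 12.64 and 12.54, also with mice 1 and 3 above mice 2 and 4. The order in Ces1d was thus not particular to the mast cell list. Among the smooth muscle genes, Actg2, Des and Mylk did not have this order. Adipocyte markers, of which Lep alone of 8 was above, summed to 8.02, 8.07, 7.96 and 8.09, and Adipoq, which defines the cell type, had 2.82, 3.39, 3.04 and 3.03.

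A range over the mice above 0.5 was seen in 10 of 111 member probe sets, or 9.01%, beside 8.54% of all. They belonged to 9 genes, 5 of them aldehyde dehydrogenases. Besides both Ces1d probe sets, the brighter Aldh1a1 probe set was among them (SD 0.24, adjusted p = 0.93, limma), and without mouse 3 its SD was 0.05 (adjusted p = 0.996, limma). Sult5a1, a sulfotransferase, had 4.02, 3.99, 4.62 and 4.39 and was under the limit on all arrays. Aldh18a1 had 4.38, 4.79, 4.33 and 4.16, highest in mouse 2. Cyp1a2, a P450 of aromatic amine metabolism in liver, had 5.35, 5.19, 5.31 and 5.74, highest in mouse 4. The highest mouse thus was not the same from gene to gene.

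**Figure D4:**
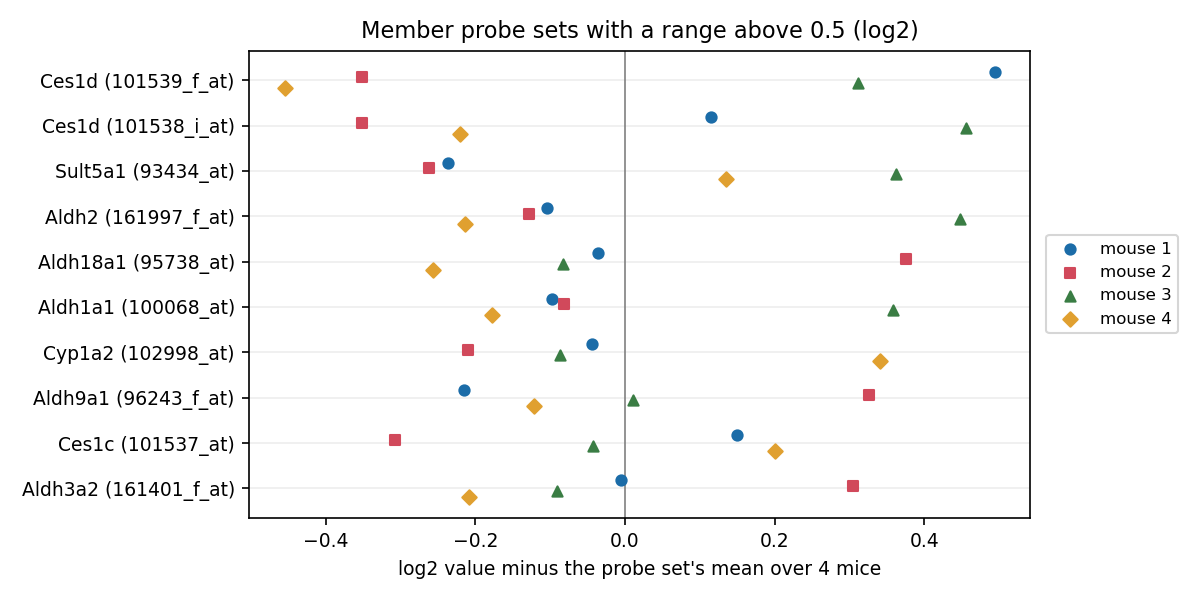
Log2 value minus the probe set's own mean over 4 mice (horizontal axis) for the 10 member probe sets whose range over the mice exceeded 0.5, 1 symbol per mouse. Mouse 3 was highest for 4 of them, mouse 2 for 3, mouse 4 for 2 and mouse 1 for 1. Of the 10, the brighter Aldh1a1 probe set and the brighter Ces1d probe set were above the background range.

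Over the 111 member probe sets mouse 2 was lowest in 54, or 48.6%, beside 36.7% of all probe sets. Mice 1, 3 and 4 were lowest in 16.2%, 18.9% and 16.2% of the members, beside 20.7%, 22.2% and 20.3% of all. The highest value lay in mice 1 to 4 for 30.6%, 18%, 27% and 24.3% of the members, beside 25.8%, 21.6%, 26.1% and 26.5% of all. The mean deviation of mouse 2 from each gene's own mean was -0.05 over 89 genes, against 0.03, 0.01 and 0.02 in mice 1, 3 and 4. For the 16 genes above the range it was -0.05, against 0.01, 0.06 and -0.02, and 7 of the 16 were lowest in mouse 2. The array of mouse 2 also had the lowest median, 4.95 against 4.98, 4.98 and 4.96 in mice 1, 3 and 4. The same deviation over all genes is not given here, so a shift of the whole array is not separated from one of the members. The beta-actin control's 3' signal exceeded its 5' signal least in mouse 2, at 0.82 against 1.08, 1.02 and 0.98 in mice 1, 3 and 4, while the same difference for Gapdh was -0.12, -0.15, -0.15 and -0.13 in mice 1 to 4, and the part of RNA quality was not tested.

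In some genes the probe sets differed on the call. Of the 20 member genes with several probe sets, 1 (Adh5) had all of them above the range, 5 (Aldh1a1, Aldh2, Aldh3a1, Aldh7a1 and Ces1d) had some above and 14 none. The same split was not counted over all genes of the array. The difference between the brightest and the dimmest probe set of a gene reached 5.86 in Aldh7a1 and 4.10 in Aldh2. By genome order 49 of the 89 genes lay in 16 clusters with at most 5 protein-coding genes between neighbours, and 9 of these 49 were above the range, beside 7 of the 40 others. In 10 of the 16 clusters no gene was above.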

How the data were processed

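The deposited table holds 1 log2 expression value per probe set and array, made by the authors with RMA, per the submitters' processing notes. The values' range shows the log2 scale. Which RMA version was used, and on which arrays jointly, is not given in the sources used here. Of 12488 rows, 66 control probe sets were set aside. Genes were named from the platform annotation, where 10833 probe sets had 1 gene, 396 several and 1193 none. A gene is shown by its probe set of highest mean.

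Computed here: the background limit is each array's 90th percentile over 102 probe sets of 85 genes of other organs. Limma 3.58.1 in R 4.3.3 set each variance (3 residual degrees of freedom) against a robust, signal-dependent prior with 8.06 degrees of freedom by an upper-tail F test, with Benjamini-Hochberg adjustment across 12422 probe sets and a threshold of 0.05. The test was tested on simulated data. Named genes were members above the limit, the 5 further members of largest SD, 3 on either side of the limit, and the steroid P450, hydroxysteroid dehydrogenase, Cyp7b1 and Aldh1a1 to Aldh1a3 genes. Of each list of partner genes, up to 3 above the limit were named, by highest mean. Genes named beyond these were chosen after their values were seen. Figures were drawn with matplotlib 3.10.9 in Python 3.11.15. Members and lists were chosen with earlier results of these data known. Alternatives were other limits, other scalings, other prior fits, filters and leaving out each mouse.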

Additional observations from a re-analysis of the deposited data

Results flagged for a closer look

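Of 40 named probe sets, 2 had 1 mouse set apart from the other 3 by Dixon's ratio, which was just above its critical value in both. Chance sets apart about 1 group in 20. A dim probe set of Aldh2 had 3.09 in mouse 3, beside 2.54, 2.51 and 2.43 in mice 1, 2 and 4, and neither of the other 2 Aldh2 probe sets was highest in mouse 3. Hsd3b2 had 3.36 in mouse 3, beside 2.99, 3.02 and 3.05. Both were under the background limit on all 4 arrays.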

How the results depend on the processing

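The count of 16 member genes above the background range was 33 with the limit at the 75th percentile (37.1%, beside 51.9% of all genes) and 34 with each array's median (38.2%, beside 55.4%). The 27 partner genes became 50 and 55. The member count was 12 with the 95th percentile, 17 on the mean over the arrays, 12 with a gene's probe sets averaged and 12 with plain probe sets only, the last chosen after seeing the data. Without 1 mouse the count was 16 to 16 for members and 27 to 29 for partner genes. Among the counts per enzyme family, 20 of 140 moved by over 1.5 times, and with plain probe sets only Aldh3a1, Ces1d, Cyp4b1 and Cyp21a1 were lost. With a gene's probe sets averaged, the aldehyde dehydrogenases above the range fell from 4 to 1, while the alcohol dehydrogenases stayed at 3. The count of variable member probe sets was 0 under all 11 alternatives of limma's variance test, 0 to 0 without 1 mouse, with 1 to 8 at an unadjusted p under 0.05 and a lowest adjusted p of 0.163, without mouse 3. None of the 40 named probe sets crossed the threshold in 397 repeats. No paired analysis was possible because the labels give 1 group. With 4 arrays and no signal of single probes, dim probe sets are measured poorly.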

Other observations

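A further 9 probe sets read several genes of these families at once and were not members. The probe set shared by 8 Ugt1a genes, which glucuronidate bilirubin, hormones and drugs, had 6.47, 6.18, 6.54 and 6.21 in mice 1 to 4 and exceeded the background limit on 3 of 4 arrays, all but that of mouse 4. None of the other 8 exceeded it on any array. These included the probe set shared by Cyp2d12 and Cyp2d9 at a mean of 5.37 and the one shared by Cyp3a16 and Cyp3a11 at 3.33. A probe set shared by Cyp4b1 and a pseudogene averaged 3.86, while the probe set annotated to Cyp4b1 only, whose suffix marks shared probes, averaged 6.40.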
